A study of Homo sapiens with 12 samples.

Results

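Untreated IL1RAP-KO cells were compared with untreated wild-type (WT) cells, 2 libraries against 2 of the 12 RNA-seq libraries of the study. The members were chosen by their labels alone, as the libraries of these 2 genotypes that received no radiation. All cells were MCF10A, an immortalized and non-tumorigenic line of human mammary epithelium, kept in medium with epidermal growth factor, cholera toxin, insulin, hydrocortisone and horse serum. IL1RAP-KO cells (titled sgILRAP) had received pLentiCRISPRv2 with a guide RNA against IL1RAP and were used as a pool selected with puromycin, not as a clone. The study made 2 guides against IL1RAP and 2 against IL1R1. The labels name the IL1RAP-KO libraries MCF10A-85 and the IL1R1-KO libraries MCF10A-79, each with a replicate number. What these codes stand for is not stated, so whether the replicates of a knockout share a guide is not known. The labels give the WT genotype as wild type and name its libraries MCF10A-v2, and the study calls these cells parental; what v2 stands for is not stated. Beside these 4 libraries, 2 untreated IL1R1-KO libraries (genotype label ILIR1 KO, made in the same way) and 2 libraries each of WT RT and IL1RAP-KO RT cells, irradiated once at 20 Gy, were used for side comparisons. The main fit held all 12 libraries in 6 groups, so it also held 2 libraries of IL1R1-KO RT cells, irradiated in the same way. The study calls the 2 libraries of a group biological replicates, with no word on separate cultures. The p-values therefore measure the spread between libraries within groups, pooled over all groups of a fit, including groups outside the comparison.

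In the untreated cells 15 of 15303 genes tested were called lower in IL1RAP-KO than in WT, and 0 were called higher. The 15 were IL1RAP itself, the neutrophil chemokines CXCL1, CXCL2 and CXCL8, the granulocyte growth factor CSF3, the mitochondrial superoxide dismutase SOD2, the acute phase and complement genes SAA2 and CFB, the NF-κB regulators TNFAIP3, RELB and BIRC3, the IRAK family member IRAK2, 2 long noncoding RNAs (LINC02015 and AC131009.3) and the pseudogene UBL5P4. Called genes retained 8.98% to 47.2% of their WT level, apart from UBL5P4 and AC131009.3, which were listed at 0 in both IL1RAP-KO libraries. A gene was called at an adjusted p (limma on log2 values, Benjamini-Hochberg over all genes tested) under 0.05 and a fold change over 2. Called lower genes were 0.098% of those tested and called higher genes 0%. Without a fold threshold 19 genes passed the adjusted p, all of them lower. At an unadjusted p under 0.05, 331 genes (2.16%) were lower and 285 (1.86%) higher, and the median difference of all genes was 0.01 on the log2 scale. The count of called lower genes was 5 when WT replicate 1 was left out and 6 when WT replicate 2 was. It was 6 when IL1RAP-KO replicate 1 was left out and 5 when IL1RAP-KO replicate 2 was. SOD2, CXCL1, CFB and CXCL8 were called in each of these 4 fits. CSF3 was called only without WT replicate 2, TNFAIP3 and UBL5P4 only without IL1RAP-KO replicate 1, and the other 8 in none of them. With the 4 libraries fitted alone, which leaves fewer degrees of freedom, 0 genes were called.

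**Figure D1:**
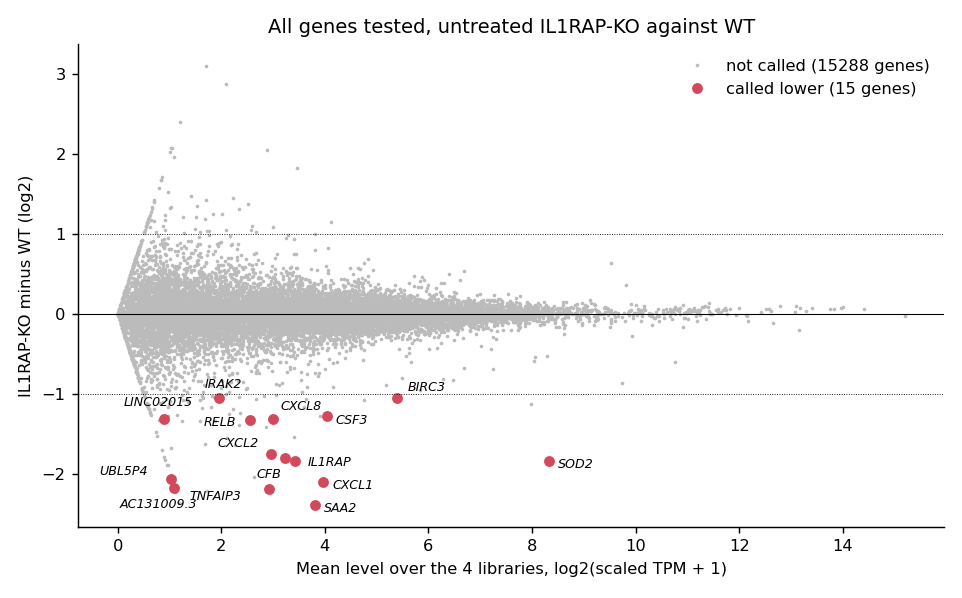
Each point is 1 of the 15303 genes tested, with its mean level over the 4 untreated WT and IL1RAP-KO libraries as log2(scaled TPM + 1) on the x axis and the IL1RAP-KO minus WT difference (log2) on the y axis. The 15 called genes, in red, lie below the dotted line at -1, which marks a fold of 2, and SOD2 stands to the right of the others at a high level.

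Interleukin-1 alpha and beta (IL1A, IL1B) are cytokines that bind the receptor chain IL1R1. The bound receptor then recruits IL1RAP, an accessory chain without which no signal is passed on, and which also serves the receptors for IL-33 and IL-36. Inside the cell the adaptor MYD88 and the IRAK kinases gather at the paired receptor chains, TRAF6 and TAK1 relay the signal, and the IKK complex frees NF-κB to enter the nucleus. NF-κB is known to raise chemokines, acute phase genes and its own inhibitors in epithelia.

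The identity of the cells was checked first. KRT5, the main keratin of basal mammary epithelium, was at 2584 and 2421 TPM in the WT libraries and 2581 and 2531 TPM in the IL1RAP-KO libraries. The basal transcription factor TP63 was at 34.4 and 34.8 TPM in WT and 39.1 and 38.2 TPM in IL1RAP-KO. The basal markers KRT14 (90.03 and 88.42 TPM in WT, 68.07 and 63.69 in IL1RAP-KO) and LAMB3 (145.4 and 132.7, 87.54 and 84.05) lay lower in IL1RAP-KO. In a longer list of 14 basal genes 6 had both IL1RAP-KO libraries below both WT libraries, against 18.1% of all genes. In 4 of the 14 both lay above, and the median difference was -0.05 on the log2 scale. The luminal markers KRT8 and KRT18 were also present, while KRT19 and ESR1 were under 1 TPM and PGR was listed at 0 in all 4 libraries. The luminal marker GATA3 was at 7.68 and 6.79 TPM in WT and 7.9 and 9.11 TPM in IL1RAP-KO. FOXA1, also luminal, was at 2.68 and 3.29 TPM in WT and 2.77 and 3.11 TPM in IL1RAP-KO. Among leukocyte markers, CD3E and CD163 were listed at 0 in all 4 libraries, PTPRC did not exceed 0.02 TPM, and CD68 was at 3.76 and 4.12 TPM in WT and 4.01 and 3.13 TPM in IL1RAP-KO. Fibroblast markers summed to 21.45 to 23.6 TPM in WT and 21.98 to 24.53 TPM in IL1RAP-KO, nearly all of it DCN, and PDGFRA was listed at 0. Endothelial markers summed to 2.57 to 3.36 TPM, nearly all of it PECAM1. Mitochondrially encoded RNA made up 18.3% and 20.8% of TPM in the WT libraries and 20.1% and 19.9% in the IL1RAP-KO libraries. Log2 levels correlated at r = 0.989 within each pair across genes, which are not independent replicates. Read counts were not used here, so the depth behind each value is unknown.

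IL1RAP (ENSG00000196083, chr3:190514051-190659750 on the plus strand of GRCh38) is the gene that the guides target. Its level was 17.96 and 20.7 scaled TPM in WT and 4.396 and 4.956 scaled TPM in IL1RAP-KO, where scaled TPM are TPM divided by a factor for each library that evens out composition. Both IL1RAP-KO libraries lay far below both WT libraries, at 24.2% of the WT mean, and the transcript was not absent. On the log2(scaled TPM + 1) scale, used for every difference below, IL1RAP fell by 1.84 (SE 0.21, adjusted p = 0.013). The call did not hold with any 1 of the 4 libraries left out, with a log2 difference between -1.94 and -1.74. Leaving out WT replicate 1 gave an adjusted p of 0.10 and leaving out WT replicate 2 gave 0.20, while IL1RAP-KO replicate 1 left out gave 0.13 and IL1RAP-KO replicate 2 left out gave 0.10. Of 24 annotated genes within 1 Mb of IL1RAP that are in the table, 6 were tested. Of these 0 were called, against 0.098% of all genes called lower. Their differences ran from -0.31 (CLDN1, a tight junction protein) to 0.16 (TP63, the transcription factor of basal epithelium). The other 4 were CCDC50, P3H2, P3H2-AS1 and CLDN16.

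**Figure D2:**
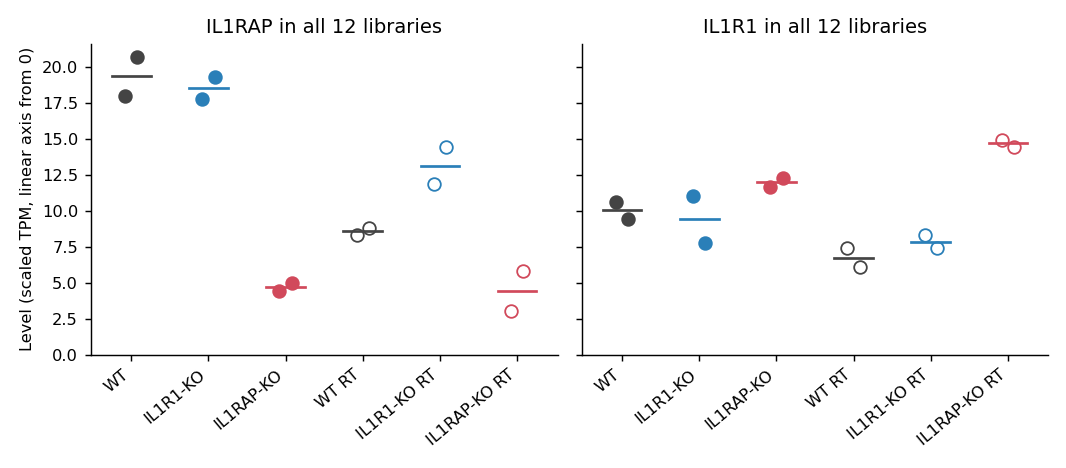
Levels of IL1RAP (left) and IL1R1 (right) in scaled TPM on a linear axis from 0, with a point for each of the 12 libraries and a bar at the mean of each group of 2; filled points are untreated and open points irradiated. The IL1RAP-KO libraries lie at 4.396 and 4.956 scaled TPM of IL1RAP, below the 17.7 to 20.7 of the other 4 untreated libraries, while IL1R1 does not separate the IL1R1-KO libraries from WT.

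Among the other receptor chains, IL1R1 stood at 10.6 and 9.44 scaled TPM in WT and 11.7 and 12.3 in IL1RAP-KO, a difference of 0.23 (adjusted p = 1.00). In the libraries labelled IL1R1-KO it was 10.995 and 7.788 scaled TPM, so the transcript level does not mark the knockout there. SIGIRR, an inhibitory receptor of the family, was at 3.34 and 5.33 scaled TPM in WT and 4.38 and 5.82 in IL1RAP-KO. IL18R1, the binding chain for IL-18, was at 1.21 and 1.29 scaled TPM in WT and 0.82 and 0.86 in IL1RAP-KO. The decoy receptor IL1R2 and the IL-33 receptor IL1RL1 did not exceed 0.36 scaled TPM in these 4 libraries. Of 10 receptor genes 6 passed the filter on low values. IL1RAP, the targeted gene, was the only member called, against 0.098% of all genes called lower. The other 5 differed by -0.29 to 0.23. IL1RL2, IL18RAP, IL1RAPL1 and IL1RAPL2 were not tested.

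Of 12 genes for ligands and antagonists of the family 5 passed the filter and 0 were called, against 0.098% of all genes called lower. IL1A was at 56.6 and 60.1 scaled TPM in WT and 30.9 and 35.0 in IL1RAP-KO, so the groups did not overlap. The difference of -0.81 (SE 0.10, adjusted p = 0.022) passed the test but not the fold threshold. IL1B was at 15.4 and 17.1 scaled TPM in WT and 7.77 and 8.52 in IL1RAP-KO, a difference of -0.91 (adjusted p = 0.12). IL18, by far the highest of the family, was at 200 and 202 scaled TPM in WT and 201 and 204 in IL1RAP-KO. IL1RN, the natural antagonist of IL1R1, was at 1.66 and 1.76 scaled TPM in WT and 2.47 and 2.06 in IL1RAP-KO, a difference of 0.27 that did not pass the test although the genotypes did not overlap. IL18BP, which binds and blocks IL-18, differed by 0.22. IL33, the 3 IL-36 ligands, IL36RN, IL37 and IL1F10 did not exceed 0.14 TPM in any of the 4 libraries.

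In the relay from the receptor, 15 members of a list of MyD88, IRAK, TRAF6 and TAK1 genes were tested. IRAK2 was the only one called, against 0.098% of all genes called lower. IRAK2 is a member of the IRAK family in the complex that MYD88 assembles. It was at 4.75 and 4.49 scaled TPM in WT and 1.73 and 1.66 in IL1RAP-KO, 36.7% of the WT level. The fall by 1.06 (SE 0.16) sat at the edge of both thresholds with an adjusted p of 0.0497, and the call held in 4 of 15 alternative settings. The other 14 members differed by -0.16 (ECSIT) to 0.21 (PELI3) and the median of the list was 0.02.

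NF-κB subunits, IKK genes and inhibitors were all measured, 26 of 26. Of these 3 were called lower, against 0.098% of all genes, and 13 had an unadjusted p under 0.05 in the lower direction, against 2.16% of all genes tested. Both IL1RAP-KO libraries lay below both WT libraries for 15 members, against 18.1% of all genes, and the median was -0.32. The list was put together with results of these data known, so its direction is a description. TNFAIP3, whose product A20 removes ubiquitin chains and shuts off IKK, was at 14.2 and 16.2 scaled TPM in WT and 3.82 and 1.61 in IL1RAP-KO. The IL1RAP-KO libraries were further apart than in the other called genes of the list, and TNFAIP3 fell by 2.19 (SE 0.29, adjusted p = 0.025). RELB, an NF-κB subunit of the noncanonical arm, was at 8.65 and 8.11 scaled TPM in WT and 2.57 and 2.88 in IL1RAP-KO. RELB fell by 1.33 (adjusted p = 0.013). BIRC3, a ubiquitin ligase that acts upstream of both arms, was at 57.9 and 60.8 scaled TPM in WT and 27.8 and 28.2 in IL1RAP-KO. BIRC3 fell by 1.06 (adjusted p = 0.026).

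TNIP1, which binds A20, was at 106 and 98.4 scaled TPM in WT and 58.8 and 56.4 in IL1RAP-KO. Its difference of -0.82 (adjusted p = 0.025) passed the test but not the fold threshold. NFKBIZ, an inducible nuclear member of the inhibitor family, was at 6.58 and 6.76 scaled TPM in WT and 3.47 and 2.57 in IL1RAP-KO (-0.94, adjusted p = 0.12). Further members were named after their values were seen. NFKBIA, the main cytoplasmic inhibitor, was at 149 and 148 scaled TPM in WT and 118 and 107 in IL1RAP-KO (-0.40, adjusted p = 0.20). NFKB2, the precursor of the noncanonical subunit p52, was at 14.3 and 13.4 scaled TPM in WT and 7.46 and 8.56 in IL1RAP-KO (-0.72, adjusted p = 0.34). Neither passed the test, although in both genes the 2 genotypes did not overlap.

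The ELR+ chemokines attract neutrophils through CXCR1 and CXCR2, and their genes lie together on chromosome 4. Of 7 genes 4 passed the filter, 3 were called lower, against 0.098% of all genes, and in all 4 both IL1RAP-KO libraries lay below both WT libraries, against 18.1% of all genes. The median was -1.54. CXCL1 (chr4:73869393-73871308) was at 31.8 and 31.2 scaled TPM in WT and 7.07 and 6.05 in IL1RAP-KO. The WT libraries differed by less than 1 scaled TPM, and CXCL1 fell by 2.11 (SE 0.15, adjusted p = 0.00050). CXCL2 (chr4:74097040-74099196, minus strand) was at 14.7 and 12.2 scaled TPM in WT and 3.24 and 3.25 in IL1RAP-KO. CXCL2 fell by 1.76 (SE 0.25, adjusted p = 0.035). CXCL8 (chr4:73740519-73743716), which encodes IL-8, was at 11.1 and 12.1 scaled TPM in WT and 4.02 and 4.09 in IL1RAP-KO. CXCL8 fell by 1.32 (SE 0.11, adjusted p = 0.0017). CXCL3 was low, at 1.62 and 1.23 scaled TPM in WT and 0.70 and 0.34 in IL1RAP-KO, and its difference of -0.68 did not pass the test (adjusted p = 1.00). CXCL1, CXCL2 and CXCL3 are close copies of each other, so reads they share could have been split between them and their single values are uncertain.

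Among 10 tested genes for other chemokines and myeloid growth factors 1 was called lower, against 0.098% of all genes. CSF3 (chr17:40015361-40017813), the granulocyte colony-stimulating factor, was at 25.6 and 23.6 scaled TPM in WT and 9.26 and 9.76 in IL1RAP-KO. CSF3 fell by 1.28 (SE 0.13, adjusted p = 0.0042). CSF1, the macrophage growth factor, was at 11.02 and 11.8 scaled TPM in WT and 6.71 and 8.57 in IL1RAP-KO. CCL2, which attracts monocytes, was at 2.77 and 2.02 scaled TPM in WT and 1.12 and 1.83 in IL1RAP-KO. Neither of these passed the test, with differences of -0.53 (CSF1, adjusted p = 0.94) and -0.46 (CCL2, adjusted p = 1.00). In the IL-6 family and STAT3 list 0 of 12 were called, and IL6 itself was at 1.02 and 1.91 scaled TPM in WT and 0.14 and 0.74 in IL1RAP-KO.

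SOD2 (ENSG00000112096) encodes the manganese superoxide dismutase of mitochondria. RefSeq places it at chr6:159669069-159762281 of GRCh38.p14, matched by symbol. It was at 606 and 601 scaled TPM in WT and 159 and 177 in IL1RAP-KO, the highest level of any called gene. SOD2 fell by 1.84 (SE 0.12, adjusted p = 0.00050) to 27.8% of WT. Of 20 tested superoxide and peroxide enzymes SOD2 was the only one called, against 0.098% of all genes called lower. The median of the list was 0.02. GPX3, a secreted peroxidase, was at 5.06 and 4.62 scaled TPM in WT and 2.25 and 0.64 in IL1RAP-KO (-1.34, adjusted p = 0.34). GPX2 was near the floor in both genotypes, at 0.13 and 0 scaled TPM in WT and 0.79 and 0.46 in IL1RAP-KO.

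**Figure D3:**
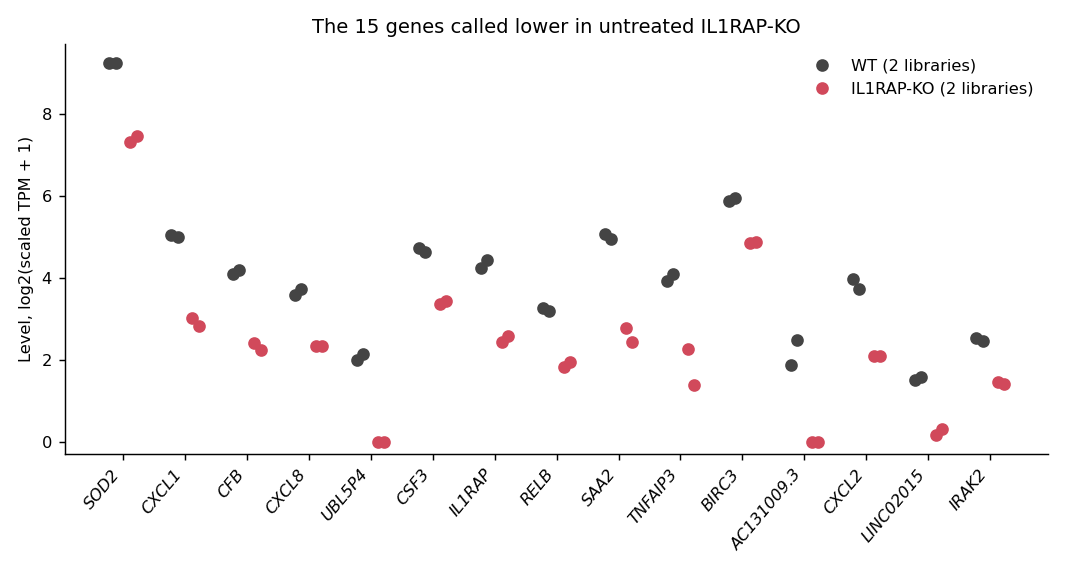
Levels of the 15 called genes as log2(scaled TPM + 1), ordered by adjusted p, with 2 grey points for the WT libraries and 2 red points for the IL1RAP-KO libraries of each gene. In each gene the red points lie below the grey ones, and those of UBL5P4 and AC131009.3 lie at 0.

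Of 23 tested acute phase and complement genes 2 were called lower, against 0.098% of all genes, and 8 had an unadjusted p under 0.05 in the lower direction, against 2.16%. The median was -0.18. SAA2, a serum amyloid A protein of the acute phase, was at 32.4 and 29.8 scaled TPM in WT and 5.90 and 4.44 in IL1RAP-KO. SAA2 fell by 2.39 (SE 0.31, adjusted p = 0.025) to 16.6% of WT. SAA1, its close copy, was at 399 and 347 scaled TPM in WT and 167 and 171 in IL1RAP-KO. The difference of -1.13 missed the threshold (adjusted p = 0.053), and reads shared by SAA1 and SAA2 make the values of each uncertain. CFB, complement factor B of the alternative pathway, was at 16.1 and 17.2 scaled TPM in WT and 4.35 and 3.74 in IL1RAP-KO. CFB fell by 1.81 (SE 0.14, adjusted p = 0.00084). The proteases of complement C1 followed the same order without passing the test: C1R was at 19.2 and 15.3 scaled TPM in WT and 6.61 and 7.61 in IL1RAP-KO (adjusted p = 0.32), and C1S was at 6.02 and 8.04 scaled TPM in WT and 2.39 and 2.32 in IL1RAP-KO (adjusted p = 0.23).

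Secreted antimicrobial proteins and S100 alarmins had 0 called genes among 16 tested, against 0.098% of all genes called lower. Of the 16, 5 had an unadjusted p under 0.05 in the lower direction, against 2.16% of all genes, and the median was -0.29. S100A8, a subunit of calprotectin, was at 1169 and 1129 scaled TPM in WT and 628 and 632 in IL1RAP-KO. Its groups were far apart for their spread, yet the difference of -0.87 did not pass the test over all genes (adjusted p = 0.28). LTF, the iron-binding lactotransferrin, was at 3.32 and 2.09 scaled TPM in WT and 0.24 and 0.06 in IL1RAP-KO (-1.67, adjusted p = 0.14). Among 16 MHC class I genes 0 were called, 12 had both IL1RAP-KO libraries below both WT libraries against 18.1% of all genes, and the median was -0.26. HLA-B, a class I heavy chain, was at 62.4 and 61.2 scaled TPM in WT and 40.4 and 39.9 in IL1RAP-KO (-0.61, adjusted p = 0.60). TAPBP, the chaperone that loads peptide, was at 43.2 and 42.0 scaled TPM in WT and 35.2 and 32.5 in IL1RAP-KO (-0.33). Class I heavy chains are alike in sequence, so their single values are uncertain.

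Of 18 tested adhesion and TNF superfamily genes, ICAM1, a ligand for leukocyte integrins, passed the test without the fold. It was at 21.6 and 23.1 scaled TPM in WT and 14.2 and 14.5 in IL1RAP-KO (-0.61, adjusted p = 0.035). SLC39A8, a zinc and manganese transporter that no list holds and that was named after its values were seen, was the remaining gene of this kind. It was at 80.8 and 76.9 scaled TPM in WT and 38.3 and 41.9 in IL1RAP-KO (-0.96, adjusted p = 0.0021), just short of a fold of 2. LAMB3, a laminin chain of the basement membrane, was at 132 and 125 scaled TPM in WT and 81.7 and 78.2 in IL1RAP-KO (-0.68, adjusted p = 0.13). It is also a basal marker, as is KRT14, which was at 82.0 and 83.3 scaled TPM in WT and 63.5 and 59.2 in IL1RAP-KO (-0.42, adjusted p = 1.00).

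Several programmes had no called gene, against 0.098% of all genes called lower and 0% called higher. At these shares a count of 0 is the usual outcome for lists of this size. Among 45 mitosis genes 0 were called and 0 passed an unadjusted p of 0.05, with differences of -0.20 to 0.19. Among 46 DNA replication genes 0 were called and the median was -0.03. The type I interferon list had 0 of 43 called and a median of -0.03, with IRF1, a transcription factor that interferon and NF-κB both induce, at 18.2 and 16.2 scaled TPM in WT and 10.9 and 9.02 in IL1RAP-KO (-0.74, adjusted p = 0.47). For p53 target genes 0 of 34 were called, and for heat shock proteins 0 of 19. MAP kinase genes and their phosphatases, the other arm below TAK1, had 0 of 18 called and a median of -0.02. Immediate early genes had 0 of 18 called and a median of -0.12, keratinocyte differentiation genes 0 of 25 and 0.06, and epithelial-mesenchymal transition genes 0 of 27 and 0.04. Of 5 tested metallothioneins 0 were called, 3 had an unadjusted p under 0.05 in the lower direction against 2.16% of all genes, 4 had both IL1RAP-KO libraries below both WT libraries against 18.1%, and the median was -0.28. Mitochondrially encoded mRNAs differed by -0.03 to 0.10, and housekeeping genes by -0.16 to 0.09. A p that misses the threshold does not show that these genes are equal in both genotypes.

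**Figure D4:**
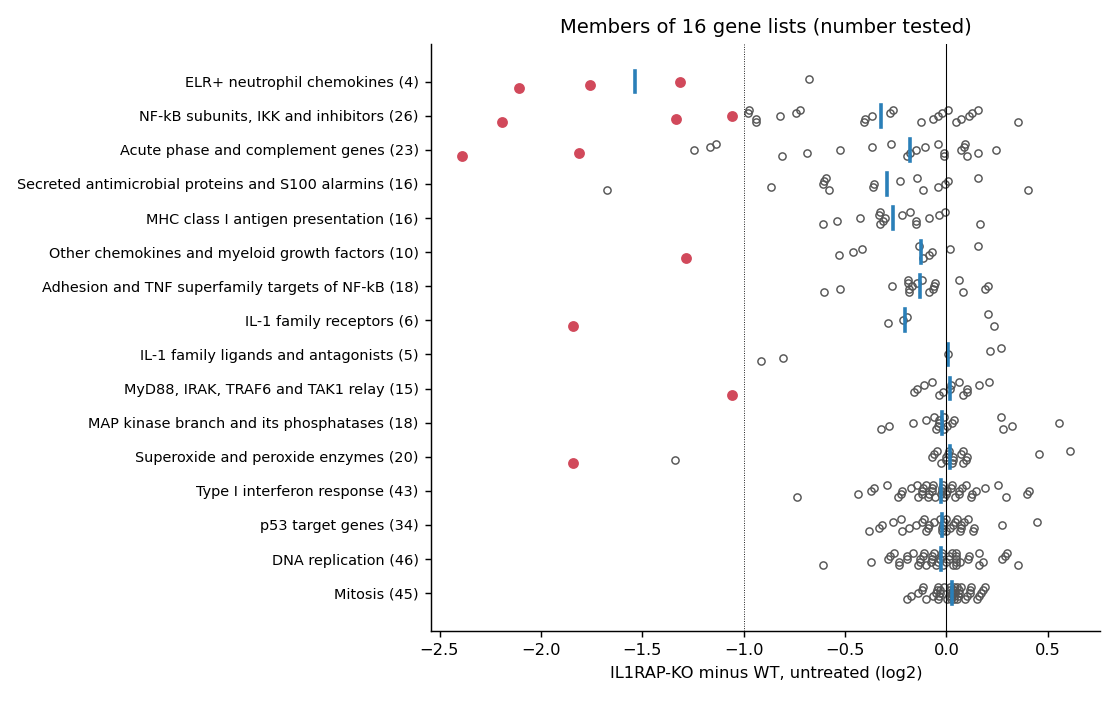
IL1RAP-KO minus WT differences (log2) of the tested members of 16 gene lists, with a point per gene, called genes in red, a blue bar at the median of each list and a dotted line at -1. The ELR+ chemokines stand lowest as a list, with a median of -1.54, the NF-κB list spreads from -2.19 to 0.36, and the members of the mitosis list lie within -0.20 and 0.19.

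In the higher direction 0 genes were called. The highest differences among genes at an unadjusted p under 0.01 with no overlap and a mean of at least 2 log2 units over all 12 libraries were all uncalled. LINC02482 was at 5.82 and 6.16 scaled TPM in WT and 12.4 and 13.2 in IL1RAP-KO (0.98, adjusted p = 0.16). TIPARP-AS1 was at 1.82 and 1.46 scaled TPM in WT and 4.54 and 6.09 in IL1RAP-KO (1.25, adjusted p = 0.20). AL450306.1 was at 9.04 and 12.7 scaled TPM in WT and 22.9 and 27.1 in IL1RAP-KO (1.147, adjusted p = 0.31). These are noncoding or antisense genes. POLD4, a subunit of DNA polymerase delta, was at 3.33 and 2.89 scaled TPM in WT and 6.84 and 8.86 in IL1RAP-KO (1.10, adjusted p = 0.67). Z83840.1, RPL23AP1, AC127024.5 and INO80B-WBP1 completed the 8, with differences of 0.85 to 1.31 and adjusted p of 0.61 to 0.83. A pair of further genes was named after the values were seen, and the second of them differed by more than any of the 8 but fell under the limit on the mean over all 12 libraries. KRT15, a basal keratin, was at 592 and 590 scaled TPM in WT and 938 and 907 in IL1RAP-KO (0.64, adjusted p = 0.19). RPL36A-HNRNPH2, a readthrough locus that overlaps 2 other genes, was at 0 and 1.47 scaled TPM in WT and 7.77 and 14.1 in IL1RAP-KO (2.87, adjusted p = 0.053).

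The 8 lowest uncalled differences by the same rule went to LTF, C1S, C1R, SAA1, TNFRSF6B, PDZK1IP1, GFPT2 and ZC3H12A, from -1.67 to -0.98. LTF is low in the untreated libraries and meets the limit on the mean through WT RT, where it was at 1036 and 661 scaled TPM. TNFRSF6B, a soluble decoy for Fas ligand, was at 41.7 and 35.4 scaled TPM in WT and 18.5 and 16.8 in IL1RAP-KO. ZC3H12A encodes regnase-1, an RNase that degrades cytokine mRNAs, and was at 17.6 and 13.8 scaled TPM in WT and 8.24 and 6.66 in IL1RAP-KO. PDZK1IP1 was at 17.5 and 16.4 scaled TPM in WT and 7.95 and 7.21 in IL1RAP-KO. GFPT2, an enzyme of hexosamine synthesis, was at 7.73 and 8.66 scaled TPM in WT and 4.48 and 2.53 in IL1RAP-KO.

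The 3 called genes without a known protein were low in every untreated library. LINC02015 (chr3:177816865-177899224) was at 1.85 and 1.99 scaled TPM in WT and 0.11 and 0.23 in IL1RAP-KO. UBL5P4, a processed pseudogene of UBL5, was at 2.997 and 3.392 scaled TPM in WT and listed at 0 in both IL1RAP-KO libraries. It was listed at 0 in each of the other 8 libraries too, both untreated IL1R1-KO libraries and all 6 irradiated ones. AC131009.3 was at 2.67 and 4.56 scaled TPM in WT and listed at 0 in both IL1RAP-KO libraries. A pseudogene shares sequence with its parent gene, so the counting of UBL5P4 is uncertain, and a listed 0 does not give the depth behind it.

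The promoters of called genes are shown as background to the pathway outlined above, in which NF-κB is the transcription factor. Whether NF-κB accounts for the change of any of these genes was not tested. RefSeq windows of 300 bases around the start of transcription (GRCh38.p14) held the κB consensus motif, 10 bases on either strand, in 11.3% of 35116 windows. Of the 15 called genes 10 matched a window by symbol, all but CSF3, RELB, SAA2, UBL5P4 and AC131009.3. Of the 10 genes with a window 5 held the motif, against 1776 of 10381 tested genes with a window (17.1%). The 5 are printed below as the 250 bases before the start, 5′ to 3′ along the strand of the gene, with the motif in capitals.
CXCL1 (chr4:73869143-73869392, plus strand): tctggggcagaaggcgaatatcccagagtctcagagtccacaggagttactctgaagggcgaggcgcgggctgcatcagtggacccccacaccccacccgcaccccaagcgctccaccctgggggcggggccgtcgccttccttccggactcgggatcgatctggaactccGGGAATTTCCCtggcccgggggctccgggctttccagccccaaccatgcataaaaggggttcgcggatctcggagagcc
CXCL2 (chr4:74099196-74099445, minus strand): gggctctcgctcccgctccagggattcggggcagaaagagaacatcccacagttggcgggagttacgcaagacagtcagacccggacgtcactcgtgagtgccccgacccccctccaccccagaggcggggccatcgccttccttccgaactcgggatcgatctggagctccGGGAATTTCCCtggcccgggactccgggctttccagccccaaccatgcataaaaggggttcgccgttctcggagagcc
TNFAIP3 (chr6:137867009-137867258, plus strand): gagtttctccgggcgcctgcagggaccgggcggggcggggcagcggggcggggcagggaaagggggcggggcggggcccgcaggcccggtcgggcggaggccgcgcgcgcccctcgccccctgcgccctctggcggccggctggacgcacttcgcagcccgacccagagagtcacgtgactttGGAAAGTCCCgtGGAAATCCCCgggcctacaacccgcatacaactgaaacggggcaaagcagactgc
BIRC3 (chr11:102317234-102317483, plus strand): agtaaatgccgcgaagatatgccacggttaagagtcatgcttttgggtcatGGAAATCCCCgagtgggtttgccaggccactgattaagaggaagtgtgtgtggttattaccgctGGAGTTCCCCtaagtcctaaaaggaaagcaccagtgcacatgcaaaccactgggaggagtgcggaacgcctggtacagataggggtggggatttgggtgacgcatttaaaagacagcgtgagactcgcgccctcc
CFB (chr6:31945845-31946094, plus strand): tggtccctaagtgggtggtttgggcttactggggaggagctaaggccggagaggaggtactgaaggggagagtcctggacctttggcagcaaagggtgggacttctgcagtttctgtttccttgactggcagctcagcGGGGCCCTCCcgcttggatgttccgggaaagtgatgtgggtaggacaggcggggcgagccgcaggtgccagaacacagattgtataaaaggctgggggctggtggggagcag

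In CXCL1 the capitals run over 2 overlapping matches, 1 on each strand, that together begin 79 bases before the start of transcription. CXCL2 holds the same letters from 78 bases before its start, and the bases around them are also alike in these close copies. TNFAIP3 holds 2 matches on the opposite strand, 67 to 58 and 55 to 46 bases before the start. BIRC3 holds 2 matches further out, 199 to 190 and 135 to 126 bases before the start, and CFB holds 1 from 112 to 103 bases before it. No match was found in the windows of SOD2, CXCL8, IL1RAP, LINC02015 and IRAK2, which says only that these letters are not in these windows. A match is not shown to be a bound site here.

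The untreated IL1R1-KO libraries were then set beside the IL1RAP-KO libraries. The comparison of IL1R1-KO with WT uses the same 2 WT libraries, so it is no independent repeat. In it 12 of the 15 genes were called lower, against 0.118% of all genes tested, with a median of -1.88 over the 15. Between the KO lines directly 4 genes were called lower in IL1RAP-KO (0.0261% of genes tested) and 0 higher. Of the 15 genes only IL1RAP was among them, at 17.7 and 19.3 scaled TPM in IL1R1-KO and 4.396 and 4.956 in IL1RAP-KO, lower by 1.78 on the log2 scale (adjusted p = 0.036). The other 3 called genes were AC004975.1, AC107918.4 and AC245100.3, which were low or at 0 in WT and IL1RAP-KO alike. The call of IL1RAP was lost without either IL1R1-KO library (adjusted p = 0.24 without replicate 1 and 0.053 without replicate 2) and without either IL1RAP-KO library (0.32 without replicate 1 and 0.15 without replicate 2), and in 10 of 15 alternatives in all.

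CXCL1 was at 2.69 and 2.93 scaled TPM in IL1R1-KO, below the 7.07 and 6.05 of IL1RAP-KO, but the difference of 0.99 (95% interval 0.66 to 1.31) did not pass the test over all genes (adjusted p = 0.12). SOD2 was at 141 and 118 scaled TPM in IL1R1-KO against 159 and 177 in IL1RAP-KO, a difference of 0.37 (95% interval 0.10 to 0.64, adjusted p = 1.00). CXCL8 differed by 0.58 between the KO lines (95% interval 0.33 to 0.83, adjusted p = 0.53) and TNFAIP3 by -0.04 (95% interval -0.68 to 0.60). Of the 15 genes 4 lay lower in IL1RAP-KO than in IL1R1-KO, and the median of the 15 was 0.30. AC131009.3 was at 2.93 and 1.39 scaled TPM in IL1R1-KO and listed at 0 in IL1RAP-KO.

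The same genotypes after 20 Gy are 4 other libraries. Of the 15 genes 12 were called lower in IL1RAP-KO RT than in WT RT, against 2.06% of all genes tested, with a median of -2.73. Of the same 15 genes 11 were called higher in WT RT than in untreated WT, against 7.04% of all genes. Called lower in WT RT were 2 of the 15, UBL5P4 and IL1RAP, against 944 of 15303 genes. The mean of IL1RAP was 19.3 scaled TPM in untreated WT and 8.56 in WT RT (-1.09, adjusted p = 0.0026 by limma). SOD2 was at 6302 and 5568 scaled TPM in WT RT and 862 and 821 in IL1RAP-KO RT, a difference of -2.81 (adjusted p = 2.09e-06). CXCL1 was at 1060 and 987 scaled TPM in WT RT and 51.0 and 36.6 in IL1RAP-KO RT, a difference of -4.53 (adjusted p = 2.24e-07). IL1RAP was at 8.32 and 8.79 scaled TPM in WT RT and 3.05 and 5.80 in IL1RAP-KO RT. Its difference of -0.87 (adjusted p = 0.028) passed the test without the fold threshold, and was -1.24 (adjusted p = 0.0034) without IL1RAP-KO RT replicate 2 and -0.49 (adjusted p = 0.044) without IL1RAP-KO RT replicate 1. UBL5P4 was listed at 0 in all 4 irradiated libraries.

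Irradiated IL1RAP-KO libraries stood apart from each other (r = 0.972 across genes, against 0.982 for WT RT). Mitochondrially encoded RNA took 45.1% and 57.0% of TPM in IL1RAP-KO RT and 38.3% and 36.9% in WT RT, and its part in the irradiated comparison was not tested. Without IL1RAP-KO RT replicate 2, which held the 57.0%, 13 of the 15 genes were called lower, and without replicate 1 the number was 12. Over all genes 316 were called lower and 127 higher after RT, which became 231 and 368 when libraries were scaled to nuclear protein-coding genes, a scaling in which the median of all genes was 0.24, and 300 and 53 with TPM as deposited. Of the 15 genes 12 were called lower under both scalings, and 8 with the 4 irradiated libraries fitted alone, where RELB, TNFAIP3, BIRC3 and CXCL2 lost the call.

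**Figure D5:**
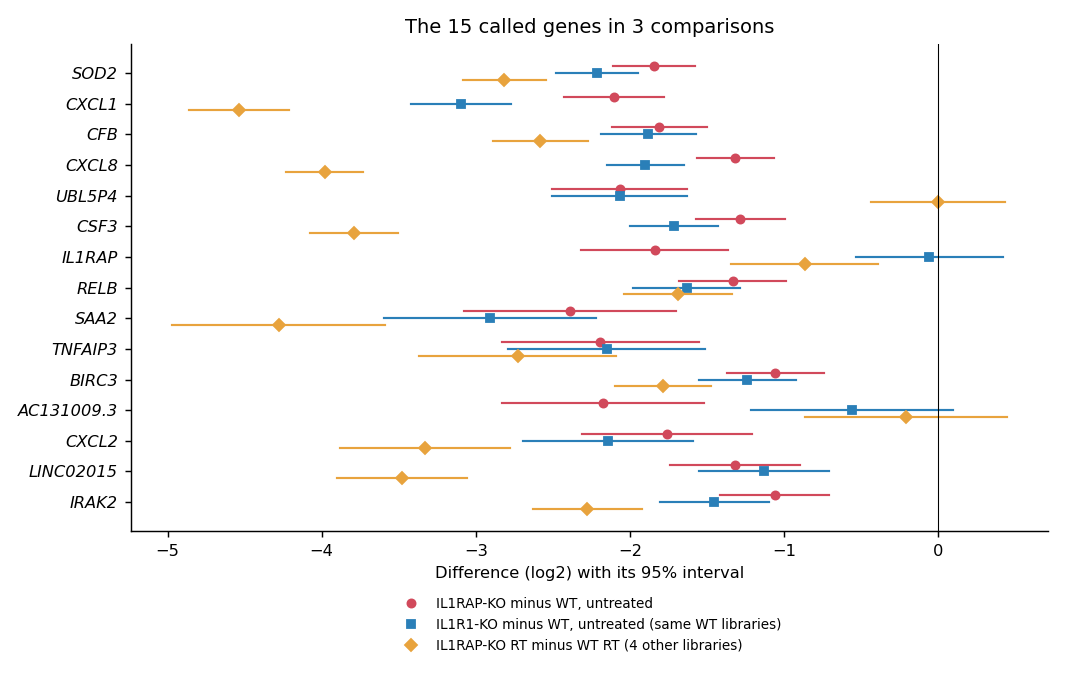
Differences (log2) of the 15 called genes with their 95% intervals from limma, for IL1RAP-KO minus WT (circles), IL1R1-KO minus WT (squares, which share the WT libraries) and IL1RAP-KO RT minus WT RT (diamonds, 4 other libraries). IL1RAP is at -1.84 in the first and at -0.06 in the second, and UBL5P4 is at 0 in the third because it is listed at 0 in all 4 irradiated libraries.

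Whether the genotype difference depended on irradiation was tested directly, as the difference in IL1RAP-KO minus WT between irradiated and untreated cells. Of the 15 genes 5 were called with a lower difference after RT (CXCL1, CXCL8, CSF3, LINC02015 and IRAK2), against 0.66% of all genes, and UBL5P4 with a higher one. The 15 were chosen by the untreated difference, which this test subtracts, so choice and test share the untreated libraries. LINC02015 was at 1.85 and 1.99 scaled TPM in untreated WT and 0.11 and 0.23 in untreated IL1RAP-KO. It was at 32.5 and 38.6 in WT RT and 2.12 and 2.42 in IL1RAP-KO RT. The pseudocount of 1 shrinks its untreated difference. At a pseudocount of 0.1 the change of LINC02015 was -0.98 (adjusted p = 0.41 by limma) and was not called. CXCL8 was at 276 and 275 scaled TPM in WT RT and 17.04 and 16.06 in IL1RAP-KO RT, and its genotype difference was lower by 2.66 after RT than before (adjusted p = 0.00012). For CSF3 the genotype difference was lower by 2.51 after RT (adjusted p = 0.00026), with 78.0 and 81.6 scaled TPM in WT RT and 4.89 and 4.80 in IL1RAP-KO RT. RELB had a difference of -1.33 before and -1.69 after RT, and the change of -0.35 did not pass the test (adjusted p = 0.44). TNFAIP3 (-0.54, adjusted p = 0.53) and BIRC3 (-0.73, adjusted p = 0.12) did not pass it either. Over all genes 101 were called lower and 24 higher in this test, which became 87 and 138 with nuclear protein-coding scaling and 65 and 6 with TPM as deposited. Without IL1RAP-KO RT replicate 1 the test called 8 of the 15 genes lower and without replicate 2 it called 4.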

How the data were processed

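RNA was sequenced after rRNA depletion from 12 MCF10A libraries, 2 in each of 6 groups. Per the study's methods and processing notes, adapters were removed by cutadapt 1.15, the reads were mapped to GRCh38 by STAR 2.5.3a, and HTSeq counted them per gene. The authors deposited TPM for 60675 genes. How counts were turned into TPM, and the gene lengths used, are not given in the sources used here. TPM corrects for length and depth but moves with the composition of a library and keeps no depth, so no count test was run.

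Libraries were scaled by a trimmed mean of log ratios (30% and 5% trims). A gene was tested if 2 or more libraries held it at a TPM of 1 or more. log2(scaled TPM + 1), computed from the deposited TPM, was fitted with limma 3.58.1 (R 4.3.3) over all 6 groups, with 6 residual and 3.73 prior degrees of freedom. The pseudocount of 1 makes fold changes of low genes too small. The fit was tested on simulated data. Intervals are 95% and tests are two-sided.

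The members and the 31 gene lists were chosen with earlier results of these data known. Genes were named if they were IL1RAP or IL1R1, were called, were among the 8 highest differences or the 8 lowest uncalled ones (unadjusted p under 0.01, no overlap, mean of at least 2 log2 units over the 12 libraries), belonged to the IL-1 ligand, IL-1 receptor or ELR+ chemokine lists, were called or among the 2 uncalled members with the smallest p of another list, or lay within 1 Mb of IL1RAP. Alternatives changed the pseudocount, the filter, the scaling, the libraries fitted, the variance trend, the replicate block and the fold threshold.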

Additional observations from a re-analysis of the deposited data

Results flagged for a closer look

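Of 100 named genes 20 had a genotype difference (IL1RAP-KO minus WT) that itself differed between irradiated and untreated cells, 18 of them lower after RT and 2 higher, by limma's interaction test with the adjusted p given for each. Over all 15303 genes 0.66% were called lower in this test and 24 genes higher. Part of the 100 genes, TIPARP-AS1 and UBL5P4 among them, were named by their untreated difference, which this test subtracts. The count of 20 is therefore a description and not a fair contrast with the share over all genes.

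Chemokines and growth factors gave values of -3.03 for CCL2 (adjusted p = 0.00098), -2.66 for CXCL8 (adjusted p = 0.00012), -2.51 for CSF3 (adjusted p = 0.00026), -2.43 for CXCL1 (adjusted p = 0.00061), -2.38 for CXCL3 (adjusted p = 0.014) and -1.30 for CSF1 (adjusted p = 0.036). Antimicrobial, acute phase and complement genes gave -4.77 for LTF (adjusted p = 0.00083), -2.80 for S100A8 (adjusted p = 0.00086), -1.87 for C1R (adjusted p = 0.036) and -1.74 for SAA1 (adjusted p = 0.010). The ligands IL1B and IL1A gave -1.65 (adjusted p = 0.0087) and -1.01 (adjusted p = 0.011), and IRAK2 gave -1.22 (adjusted p = 0.034). Values of -2.58 for PDZK1IP1 (adjusted p = 0.010), -2.57 for ZC3H12A (adjusted p = 0.020), -2.30 for the cornified envelope gene SPRR2A (adjusted p = 0.014), -2.16 for LINC02015 (adjusted p = 0.0057) and -1.69 for TIPARP-AS1 (adjusted p = 0.049) were found as well. LINC02015 is low in untreated cells, and its value was only -0.98 (adjusted p = 0.41), without a call, at a pseudocount of 0.1. LTF is low there as well, at 0.24 and 0.06 scaled TPM in untreated IL1RAP-KO, so its size too depends on the pseudocount. Its untreated difference was -1.67 in the main fit and -3.57 at a pseudocount of 0.1. Over 18 alternatives the value of LTF in the interaction test lay between -5.19 and -3.02. In the higher direction KRT14 gave 1.36 (adjusted p = 0.013) and UBL5P4 gave a fitted 2.07 (adjusted p = 0.0087), which rests on values of 0 in every library but the untreated WT ones.

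CXCL1, CXCL8, CSF3, S100A8 and CCL2 were called in all 18 alternatives of this test, LTF and LINC02015 in 17, IL1B in 16, SAA1 and PDZK1IP1 in 14, KRT14 in 13, CXCL3 in 12, IL1A in 11, ZC3H12A in 10, TIPARP-AS1 and C1R in 7, IRAK2 in 6 and CSF1 in 5. Of 17 alternatives UBL5P4 was called in 15 and SPRR2A in 13. Mitochondrially encoded RNA was 45.1% and 57.0% of TPM in IL1RAP-KO RT against 38.3% and 36.9% in WT RT, and its part in these values was not tested.

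IL1RAP itself differed between the untreated KO lines, lower by 1.78 on the log2 scale in IL1RAP-KO than in IL1R1-KO (a value of -1.78, adjusted p = 0.036), as the targeted gene. The call was lost in 10 of 15 alternatives, with an adjusted p from 0.0057 to 0.38 over them.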

How the results depend on the processing

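The 15 genes called lower in untreated IL1RAP-KO cells became 8 with no filter on low values, 5 with untreated libraries only, 0 with the 4 libraries fitted alone and 5 to 6 with 1 library left out, of which 4 to 6 were among the 15. Genes called higher numbered 1 when scaled to nuclear protein-coding genes and 0 to 2 with 1 library left out, against 0. IL1RAP kept -1.84 with the 4 libraries fitted alone (adjusted p = 0.18) and lay between -1.94 and -1.74 with 1 library left out. SOD2 and CXCL1 were called in 14 of 15 alternatives, CFB and CXCL8 in 13, CSF3 and IL1RAP in 10, RELB in 9, BIRC3 in 8, SAA2 and TNFAIP3 in 7, CXCL2 in 6, LINC02015 and IRAK2 in 4, and of 14 alternatives UBL5P4 in 9 and AC131009.3 in 6, with 0 changes of sign. LTF was called at a pseudocount of 0.1 (-3.57, adjusted p = 0.032) and 0.5 (-2.29, adjusted p = 0.040), and SAA1 with a filter of TPM 5 (adjusted p = 0.039).

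Against IL1R1-KO, the 4 genes called lower became 2 at a pseudocount of 0.1, 1 with untreated libraries only, 0 with the compared libraries fitted alone and 1 to 20 with 1 library left out. The 0 called higher became 1 with no filter, with TPM as deposited and with no variance trend, and 0 to 13 with 1 library left out, and the 20 and 13 were found without IL1R1-KO replicate 2.

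After RT, the 127 higher and 316 lower genes became 53 and 300 with TPM as deposited, 368 and 231 with nuclear protein-coding scaling, 4 and 66 with the compared libraries fitted alone, and 722 and 1120 at the lower fold threshold named in the study's methods. They ranged from 52 to 300 and from 199 to 613 with 1 library left out, highest without IL1RAP-KO RT replicate 1. For the dependence on RT, the 24 higher and 101 lower genes became 6 and 65 with TPM as deposited, 138 and 87 with nuclear protein-coding scaling, and 46 and 157 at the lower fold threshold. The higher genes were 13 with the compared libraries fitted alone and the lower genes 67 at a pseudocount of 0.1. They ranged from 5 to 192 and from 37 to 425 with 1 library left out, highest without IL1RAP-KO RT replicate 1. Nuclear protein-coding scaling moved the median of all genes to 0.24 after RT and 0.23 for the dependence on RT. The causes of these changes were not tested, and the smaller fits also hold fewer libraries.

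Same-numbered libraries did not deviate together (r of -0.06 to 0.10 across genes over 15 pairs of groups), so the numbers were not taken as pairs. With the replicate block 12 untreated genes were called lower, all among the 15, and IL1RAP was at -1.84 (adjusted p = 0.0059). The block gave 0 higher and 3 lower against IL1R1-KO, 125 and 318 after RT, and 27 and 102 for the dependence on RT.

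With 2 libraries a group and no counts, the depth behind low values is unknown, and a gene that missed the threshold is not shown to be equal between the genotypes.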
